A study of Mus musculus with 8 samples.

Results

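Ptk2b encodes Pyk2, a non-receptor tyrosine kinase of the focal adhesion kinase family. Methylation just downstream of its transcription start site was measured in aged mice, in DNA of the dorsolateral prefrontal cortex. The CpGs described are those of the single Ptk2b amplicon of the panel, taken by amplicon name, and number 20 of the 57 CpGs measured. The mice were wild type and of the outbred ICR stock. They had been kept on a campus (the control, 4 samples) or in a tunnel with polluted traffic air (4 samples). The labels give no age beyond aged, no exposure time, no sex and no batch. They number the samples 1 to 4 in each group without saying that each is a separate animal, so the p-values rest on a spread between samples that may in part be technical. The tissue is a mixture of cell types, and no marker of any cell type was measured, so the labelled tissue could not be checked.

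In neurons a rise in intracellular calcium leads Pyk2 to phosphorylate itself, and the phosphorylated kinase then recruits kinases of the Src family. Pyk2 is abundant in forebrain neurons, where it is found at synapses, and the human PTK2B locus carries risk variants for Alzheimer's disease. DNA methylation at CpGs is written by DNA methyltransferases, and CpG-dense stretches around the start sites of genes are usually kept nearly free of it. Bisulfite sequencing reads 5-methylcytosine and 5-hydroxymethylcytosine alike, and the latter is plentiful in brain.

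The 20 CpGs lay on chromosome 14 (mm10) from 66280829 to 66281023, at +29 to +223 bp from the start site given with the data, which corresponds to position 66281052. Distances rose as positions fell, so the gene reads toward lower coordinates. All 20 lay inside Ptk2b, which spans 66153257 to 66281100 in the RefSeq table, and 0 other genes of that table overlapped them. Counted from the RefSeq boundary at 66281100, which lies 48 bp upstream of the start site given with the data, the CpGs were 77 to 271 bp into the gene. Exon and intron borders were not used here. The amplicon was dense in CpGs, with 1 CpG per 9.75 bp over 195 bp, against 1 per 10.1, 14.9 and 14.3 bp in the 3 amplicons of Abca7, the other gene of the panel. Spacing was uneven. Of the 19 gaps, 12 were 6 bp or less and 6 were 11 to 18 bp, and the remaining gap was a CpG-free stretch of 60 bp between +33 and +93. In 3 places CpGs were 2 bp apart and so followed each other directly, at +93 and +95, at +95 and +97, and at +154 and +156.

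Methylation was low at every Ptk2b CpG and formed a jagged profile rather than a smooth slope. Of the 160 values, 0 were listed at 0, 8 were below 1% and 4 were at least 5%. The lowest was 0.504% at +29 in campus replicate 1 and the highest 6.21% at +154 in campus replicate 2. Mean levels over the 8 samples differed 3.77-fold between the highest and the lowest CpG, and 12 of the 20 were under 2%. Read depth was not given, so no counting error is attached to any value. The conversion rate was not given either, and the part of incomplete bisulfite conversion in these low values was not tested.

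The 5 most methylated CpGs were +154, +161, +117, +135 and +93. At +154 (position 66280898) the campus samples, replicates 1 to 4, were at 5.03, 6.21, 6.01 and 4.6% and the tunnel samples at 3.80, 5.0, 4.03 and 3.91%. At +161 (66280891) they were at 3.96, 4.82, 3.75 and 3.73% in campus and 3.95, 3.54, 3.64 and 3.17% in tunnel samples. These CpGs were the most constant in rank, since each was among the 3 highest of the amplicon in 8 of 8 samples. They were picked by their means over the same samples, so this is a description. At +117 (66280935) campus samples were at 2.69, 3.95, 2.89 and 3.22% and tunnel samples at 3.45, 3.16, 4.71 and 4.06%. At +135 (66280917) the values were 3.53, 3.26, 2.45 and 3.20% in campus and 4.5, 2.33, 3.58 and 2.41% in tunnel samples. Their places in the order were less fixed. The CpG at +117 ranked between first and 4th in every sample and +135 between first and 5th, and they were among the 3 highest in 5 and 2 samples. At +93 (66280959), the first CpG beyond the empty stretch, campus samples were at 2.52, 3.26, 3.15 and 2.77% and tunnel samples at 2.80, 2.33, 2.69 and 2.81%. It was the steadiest of the 20, with a coefficient of variation of 10.9% (n = 8).

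**Figure D1:**
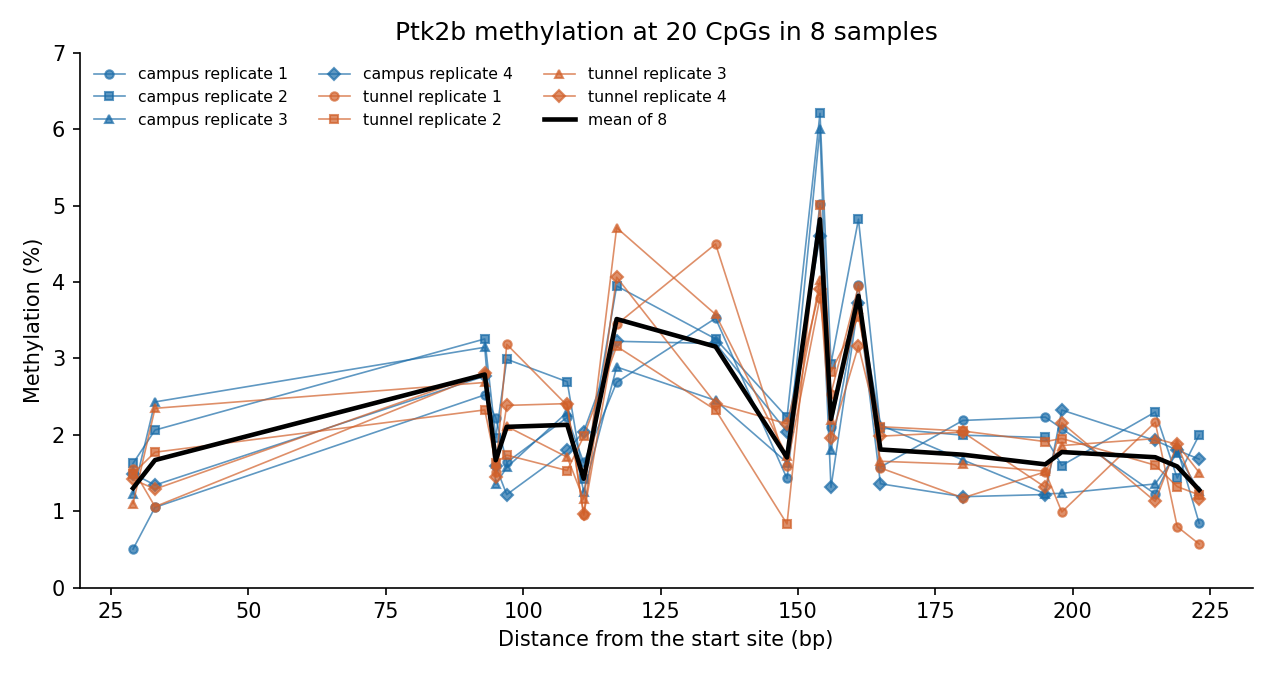
Methylation (%) at the 20 Ptk2b CpGs against distance from the start site (bp); thin lines are the 8 samples, coloured by group, and the thick line is their mean. The mean rises at +93, at +117 to +135, at +154 and at +161, where it reaches 2.79, 3.52, 3.16, 4.82 and 3.82% at the 5 named CpGs, and lies at or under 1.81% from +165 onward.

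The 3 least methylated CpGs were those at both ends of the amplicon and one in between. At +29 (66281023) campus samples were at 0.504, 1.63, 1.23 and 1.49% and tunnel samples at 1.55, 1.49, 1.10 and 1.42%. At +223 (66280829) campus samples were at 0.842, 2.0, 1.26 and 1.68% and tunnel samples at 0.569, 1.21, 1.51 and 1.16%. At +111 (66280941), 6 bp before the highly ranked +117, campus samples were at 1.64, 1.43, 1.26 and 2.04% and tunnel samples at 0.945, 1.98, 1.16 and 0.963%. The groups overlapped at each of these CpGs. None of the 3 was at the bottom throughout, and they were among the 3 lowest of the amplicon in 3, 5 and 4 of the 8 samples.

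Neighbouring CpGs often carried different levels. The CpG at +154 was above both of its neighbours in 8 of 8 samples, although +156 follows it directly and +148 lies 6 bp away. It exceeded +156 by 2.62 ± 0.974 percentage points and +148 by 3.12 ± 1.02 (SD, n = 8). Likewise +161 stood above +156 and +165, and +93 above +33 and +95, in 8 of 8 samples. Within the run at +93, +95 and +97 the means were 2.79% ± 0.303, 1.67% ± 0.288 and 2.10% ± 0.702 (SD, n = 8). These local peaks were picked from the same values and are given as a description.

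Cut into 3 equal lengths, the span held 3 CpGs in a proximal segment (+29 to +93), 9 in a middle segment (+95 to +156) and 8 in a distal segment (+161 to +223). The segments averaged 1.92% ± 0.301, 2.53% ± 0.248 and 1.92% ± 0.194 (SD, n = 8). The middle segment was the highest of the 3 in 8 of 8 samples, whereas distal and proximal segments were in either order, with the distal the higher in 4 samples. Relative to the mean of all CpGs outside it, the middle segment was higher by 0.609 ± 0.208 percentage points (SD, n = 8), with a range of 0.400 to 1.01. Without +154 the middle segment averaged 2.24% ± 0.264 (SD, n = 8) and was still above the CpGs outside it in 7 of 8 samples. The 7 CpGs of the distal segment beyond +161 formed the flattest stretch. Their means were 1.81% at +165, 1.74% at +180, 1.61% at +195, 1.77% at +198, 1.71% at +215, 1.59% at +219 and 1.28% at +223. The CpGs not yet given a level were +33 at 1.67% ± 0.562, +108 at 2.13% ± 0.405, +148 at 1.70% ± 0.453 and +156 at 2.21% ± 0.543 (SD, n = 8).

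The shape of the profile recurred from sample to sample. Over the 28 pairs of samples, Pearson's r across the 20 CpGs ranged from 0.659 to 0.918 and Spearman's rho from 0.369 to 0.909. The mean profiles of campus and tunnel samples correlated with r = 0.924 over the 20 CpGs, and with 0.898 over the 17 left after the 3 highest were removed. CpGs of one amplicon share each sample's DNA and PCR, so these values describe the profiles and are not tests. Levels were also set against spacing. Across the 20 CpGs, the mean level and the distance to the nearest CpG gave r = 0.0309 (rho = -0.105), and the mean level and the number of other CpGs within 20 bp gave r = 0.405 (rho = 0.490). CpGs near the ends have fewer measured neighbours by construction.

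The spread between samples was large against the level itself. The SD over 8 samples ranged from 0.288 to 0.924 percentage points per CpG, with a median of 0.448, and the coefficient of variation from 10.9 to 35.5%. It was widest in absolute terms at +154 and widest relative to the level at +223. Across CpGs the SD was larger where the mean was higher (r = 0.688 over 20 CpGs, a description). The CpG at +33 had an SD of 0.562 although its mean was only 1.67%. Its values were 1.05, 2.06, 2.43 and 1.34% in campus and 1.06, 1.77, 2.35 and 1.29% in tunnel samples, so both groups held high and low samples. The replicate numbers came in the same order in both groups at this CpG, rising from 1 to 4, 2 and 3, which was not tested.

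Averaging over the CpGs removed most of this spread, except in campus replicate 2. The amplicon means were 2.13, 2.64, 2.12 and 2.09% in campus and 2.10, 2.12, 2.23 and 2.10% in tunnel samples. The SD over 8 samples was 0.186 percentage points and fell to 0.0466 without campus replicate 2. That sample was above the mean of its CpG at 18 of the 20 sites, the exceptions being +198 and +219, whereas each other sample was above it at 6 to 10. It exceeded the mean of the other 7 samples by 0.451 points in the proximal, 0.625 in the middle and 0.411 in the distal segment, so its mean was raised in each segment. It was the highest sample in each of the 3 segments and at 9 of the 20 CpGs. In the proximal segment its 2.31% was close to the 2.27% of campus replicate 3. In Abca7 amplicon 03, which covers the start site of that gene, the same sample was at 1.02%, the lowest of the 8, but over all 37 Abca7 CpGs it was at 1.58%, within the 1.44 to 1.79% of the other 7. Differences at the named CpGs that campus replicate 2 moved by over 1.5 times are given below with and without it, as are the means, and the part of its DNA amount or PCR was not tested.

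**Figure D2:**
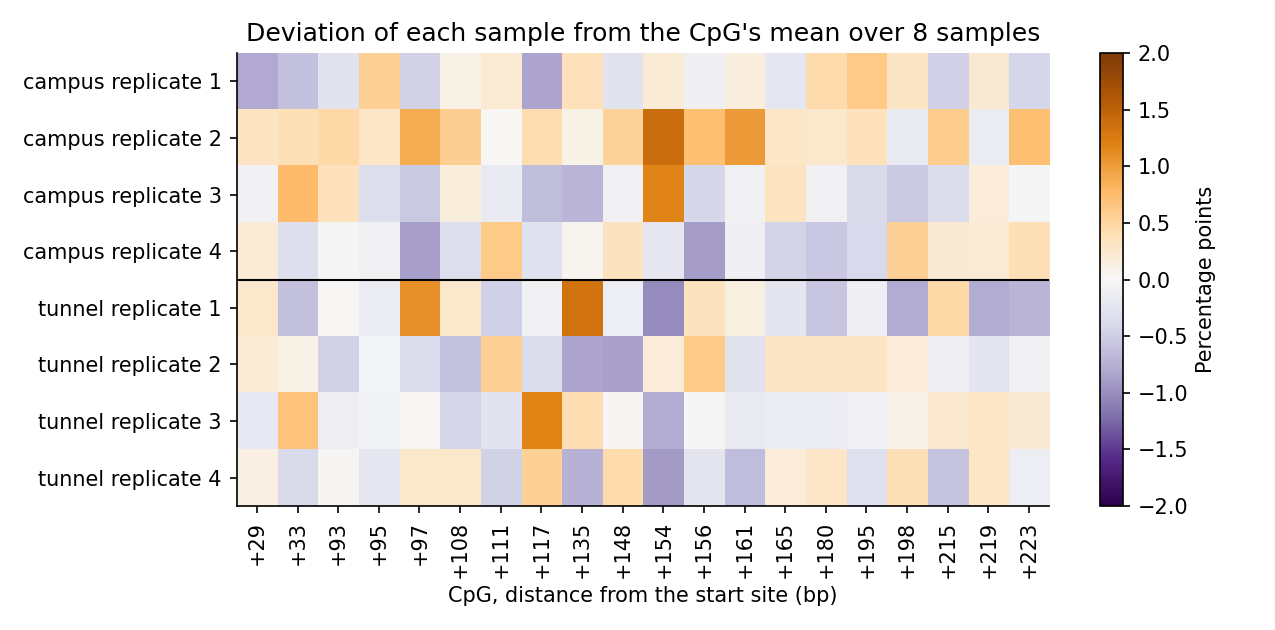
Difference of each sample (rows) from the mean of the 8 samples at each Ptk2b CpG (columns, by distance from the start site), in percentage points; orange is above and purple below the mean. Campus replicate 2 is above the mean at 18 of 20 CpGs, while the other rows mix both colours.

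Whether the traffic environment was accompanied by altered Ptk2b methylation was asked by comparing tunnel with campus samples. Over the amplicon, campus samples averaged 2.25% ± 0.264 and tunnel samples 2.14% ± 0.0616 (SD, n = 4 each). The difference of -0.108 percentage points was smaller than the campus SD (exact 97.1% interval -0.539 to 0.137; exact two-sided permutation test, p = 0.6, the smallest possible being 0.0286). Without campus replicate 2 the campus mean was 2.11% and the difference 0.0235 points, of opposite sign. The tunnel values then lay between 2.10 and 2.23% and the campus values between 2.09 and 2.13%.

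No segment of the amplicon differed between the groups by the same test. The proximal segment was at 1.36, 2.31, 2.27 and 1.87% in campus and 1.80, 1.86, 2.04 and 1.84% in tunnel samples. Here the tunnel samples all lay within the campus range. The group difference was -0.0644 points (exact 97.1% interval -0.512 to 0.685). Its exact permutation p was 0.829, and 0.857 once adjusted over the 3 segments. The difference was 0.0564 without campus replicate 2, 0.0408 without campus replicate 3 and -0.262 without campus replicate 1. The middle segment was at 2.50, 3.07, 2.36 and 2.34% in campus and 2.66, 2.34, 2.54 and 2.41% in tunnel samples. The groups overlapped, with a difference of -0.0834 points (interval -0.736 to 0.320, exact permutation p = 0.857 before and after adjustment) that became 0.0849 without campus replicate 2. Without +154 the middle segment gave 0.0660 points over all 8 samples, so a single CpG also set its sign. The distal segment was at 1.99, 2.28, 1.80 and 1.90% in campus and 1.59, 1.96, 1.95 and 1.85% in tunnel samples. Its difference of -0.152 points was the largest of the 3 (interval -0.685 to 0.164), with an exact permutation p of 0.4 and an adjusted p of 0.857. Without campus replicate 2 it was -0.0578. When 1 segment alone reaches the smallest possible p, its adjusted p is 0.0857, so a single segment could not pass a threshold of 0.05.

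**Figure D3:**
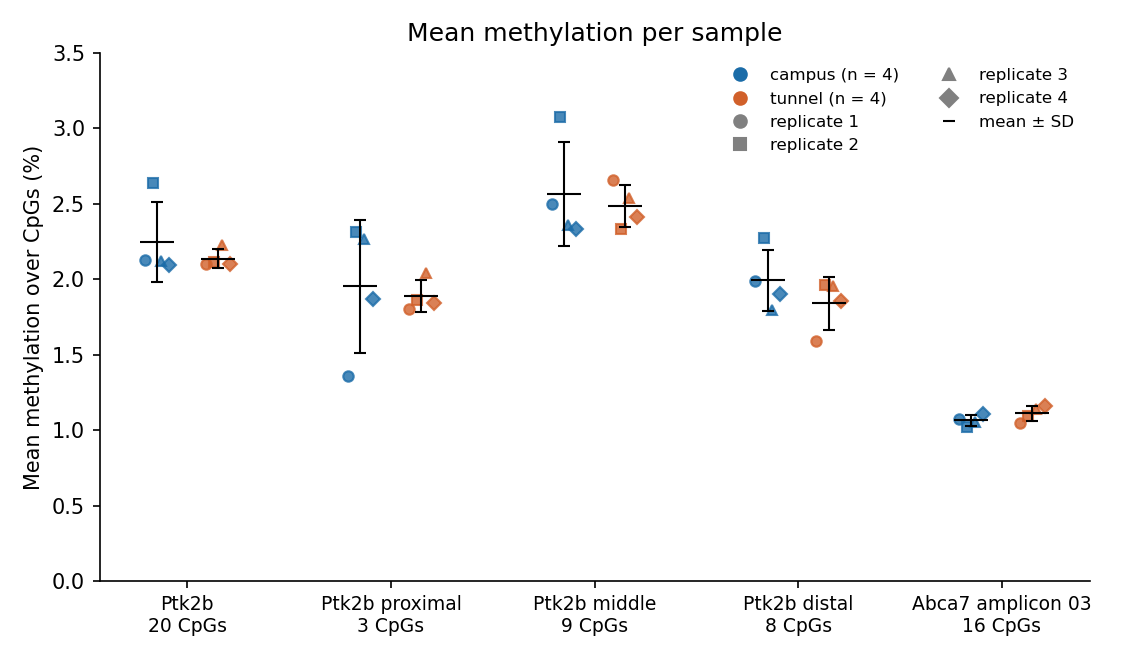
Mean methylation (%) per sample over all Ptk2b CpGs, over the 3 Ptk2b segments and over Abca7 amplicon 03; coloured points are samples, and black bars are the group mean ± SD (n = 4 each). Campus replicate 2 is the highest sample in all 4 Ptk2b columns (2.64% over the amplicon) and the lowest in Abca7 (1.02%).

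At single CpGs, limma with Benjamini-Hochberg adjustment over the 57 CpGs of the panel called 0 of the 20 Ptk2b CpGs at an adjusted p of 0.05, as it called 0% of the panel. Unadjusted, 1 Ptk2b CpG had p under 0.05 in limma, against 8.77% of the panel, and 0 did in the exact permutation test per CpG. The campus and tunnel values overlapped at 20 of 20 Ptk2b CpGs, where 1.75% of the panel did not overlap. At 13 of the 20 CpGs the tunnel mean was below the campus mean. Over the panel, which includes these 20, it was below at 29 of 57 CpGs (50.9%). Without campus replicate 2 it was below at 10 and above at 10. By segment it was below at 2 of 3 proximal, 5 of 9 middle and 6 of 8 distal CpGs.

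The CpG with the smallest p was +154, the most methylated of the amplicon. Campus samples averaged 5.46% ± 0.773 and tunnel samples 4.18% ± 0.555 (SD, n = 4 each), and tunnel minus campus was -1.28 points (exact interval -2.41 to 0.401). In 3 of the 4 tunnel samples it was below every campus sample, but tunnel replicate 2, at 5.0%, lay above campus replicate 4, at 4.6%. Its adjusted p was 0.554 in limma, and its exact permutation p was 0.0571. The difference kept its sign whichever sample was left out, from -1.57 (without campus replicate 4) to -1.03 (without campus replicate 2). It was the only CpG of the 20 whose difference exceeded the SD of both groups. As 1 of the 20 CpGs averaged, it accounted for -0.0639 of the -0.108 points of the amplicon difference. The mean difference over the other 19 CpGs alone was -0.0465 points, which has a divisor of 19 and so does not add to the former.

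The other CpGs with the smallest p went in both directions, each with a limma adjusted p of 0.905. The tunnel mean was higher at +117, with 3.19% ± 0.554 in campus and 3.85% ± 0.691 in tunnel samples (difference 0.657, exact interval -0.791 to 2.02). Tunnel replicate 3, at 4.71%, contributed most, and without it the difference was 0.368. At +97 (66280955) the campus samples were at 1.64, 2.99, 1.57 and 1.22% and the tunnel samples at 3.19, 1.73, 2.11 and 2.39%. All 4 tunnel samples were above 3 of the 4 campus samples there, while campus replicate 2 lay second highest of the 8. The difference was 0.499 points (exact interval -1.26 to 1.97), 0.878 without campus replicate 2, 0.287 without campus replicate 4 and 0.222 without tunnel replicate 1. The tunnel mean was lower at +111, with a difference of -0.330 points (exact interval -1.10 to 0.723), or -0.569 without tunnel replicate 2 and -0.180 without campus replicate 4. At +223 the difference was -0.334 points (exact interval -1.43 to 0.664), or -0.149 without campus replicate 2 and -0.535 without campus replicate 1. Among the remaining named CpGs, +161 differed by -0.491 points, +93 by -0.267, +29 by 0.178 and +135 by 0.0955. Without campus replicate 2 they were -0.238 at +161, -0.156 at +93, 0.316 at +29 and 0.145 at +135. The CpG at +93 gave -0.157 without tunnel replicate 2. With each sample left out +161 and +93 kept their sign, whereas +29 turned negative without campus replicate 1 and +135 without campus replicate 3, tunnel replicate 1 or tunnel replicate 3. The 11 CpGs outside these 9 differed by -0.261 to 0.342 points. At 15 of the 20 CpGs the exact interval held both -0.5 and 0.5 points. There a difference of that size in either direction was not rejected with 4 samples per group. This does not mean that such a difference was detectable at the other CpGs.

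**Figure D4:**
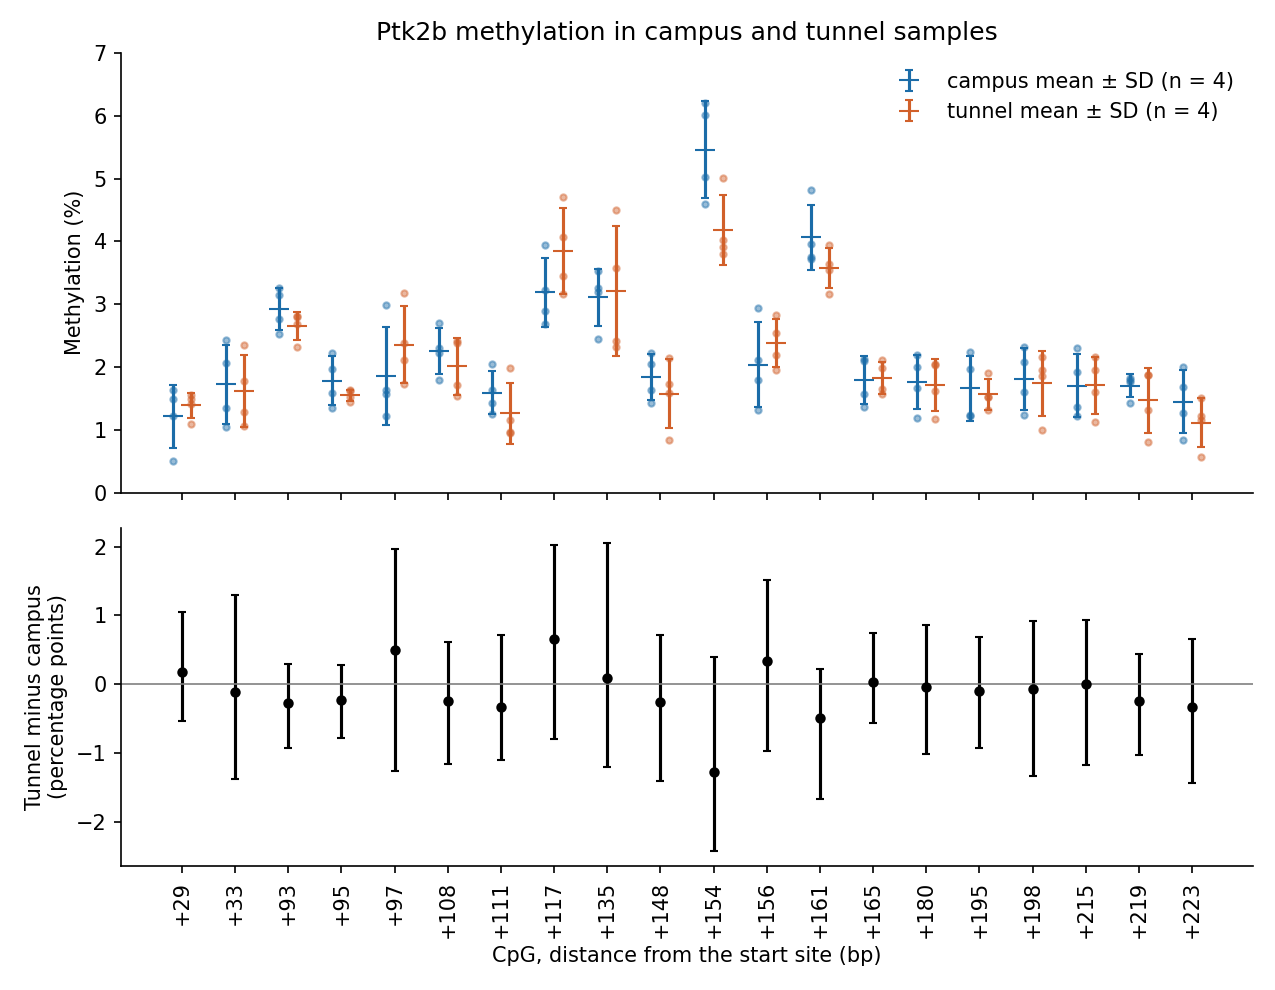
Upper panel, methylation (%) at each Ptk2b CpG in campus and tunnel samples (points, with mean ± SD, n = 4 each); lower panel, tunnel minus campus difference in percentage points with its exact 97.1% interval. All 20 intervals include 0, and +154 has the largest difference, -1.28 points.

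Compared with the start-site amplicon of Abca7, a gene for a lipid transporter, Ptk2b was the more methylated in every sample. Over all CpGs, Ptk2b averaged 2.19% ± 0.186 and Abca7 amplicon 03, with 16 CpGs at -52 to +109 bp, 1.09% ± 0.0476 (SD, n = 8), a ratio of 2.02. The within-sample difference was 1.10 ± 0.213 percentage points and above 0 in 8 of 8 samples (p = 0.00781 in an exact two-sided test that flips signs over samples, its lowest value for n = 8, and unchanged by adjustment over the 2 comparisons). It ranged from 0.939 to 1.62, the latter in campus replicate 2, and averaged 1.03 without that sample. Over the distances that both amplicons span, +29 to +109 bp, the 6 Ptk2b CpGs averaged 1.94% ± 0.245 and the 8 Abca7 CpGs 1.21% ± 0.0953 (SD, n = 8). That difference was 0.733 ± 0.215 points, again above 0 in 8 of 8 samples (exact sign-flip p = 0.00781, adjusted p = 0.00781), and 0.671 without campus replicate 2. Site means covered 1.28 to 4.82% in Ptk2b and 0.485 to 1.43% in Abca7 amplicon 03, so the least methylated Ptk2b CpG was within the range of that amplicon, and 8 Ptk2b CpGs against 0 there reached 2%. Over all 37 Abca7 CpGs the samples were at 1.44 to 1.79%, every sample below its own Ptk2b amplicon mean. The order did not hold for every amplicon, since Abca7 amplicon 05, at +1099 to +1241 bp, averaged 2.91% ± 0.372 (SD, n = 8). There 6 of 10 CpGs were at 2% or more. Abca7 amplicon 04, at +875 to +1038 bp, averaged 1.11% ± 0.0601 (SD, n = 8), with 0 of 11 CpGs at that level. The amplicons come from separate PCR products, and the part of PCR or of bisulfite conversion in these differences was not tested.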

How the data were processed

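Genomic DNA of 8 samples was profiled with a MethylTarget library, in which indexed PCR products of all samples were pooled in equal amounts, per the labels' protocols. MethylTarget amplifies chosen regions from bisulfite-treated DNA. The authors deposited, per the file headers, 1 methylation fraction (0 to 1, not normalized) per CpG and sample, with amplicon, position and distance to the start site. Per the submitters' processing notes the builds were mm10 and hg19, without a stated role. Positions are given as mm10, since they lie in Ptk2b of the RefSeq table (GRCm38.p6). The sources used here do not give the aligner, caller, filters, conversion rate or coverage, so depth is unknown.

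Fractions were multiplied to percent. After an arcsine square root transform, all 57 CpGs (0 missing values) entered 1 limma fit (version 3.58.1, R 4.3.3) with trended variance, group as the only term, and Benjamini-Hochberg adjustment over the 57 CpGs. Means over CpGs were compared by an exact two-sided permutation test over 70 allocations (Python 3.11.15, numpy 2.4.6). Intervals are the shifts this test does not reject (coverage 97.1%). Within-sample differences were tested by exact sign flips over 256 patterns. The limma script was run on simulated data with known changes, and the share of those changes that it called is not given here. Every CpG was described, and values per sample were given for the 5 highest and 3 lowest means, the 5 smallest limma p, the largest difference and any CpG without overlap. The members, segments, named CpGs and tests were chosen with earlier results of these data known. The alternatives were the scale (fraction, or M values with 0.01 or 0.001 added), the trend, an exact test per CpG, CpGs with a mean fraction of at least 0.02, Ptk2b CpGs alone, centring on the panel or Abca7 mean, medians, other segment borders, leaving out each sample, and a block for the replicate number. The samples shared 0 identical values, and all 8 were counted as separate.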

Additional observations from a re-analysis of the deposited data

Results flagged for a closer look

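Among the 28 sets of values examined (the Ptk2b amplicon mean, its 3 segment means and the 9 named CpGs, separately by group, and the 2 differences from Abca7 amplicon 03 over 8 samples), 3 held a sample far from the rest by Dixon's ratio, where chance gives about 1 in 20, or 1.4 here. Campus replicate 2 had a Ptk2b amplicon mean of 2.64%, against 2.09 to 2.13% in the other campus samples. For tunnel replicate 3 it was 2.23%, while the rest of its group lay at 2.10 to 2.12%. The difference between Ptk2b and Abca7 amplicon 03 was 1.62 percentage points in campus replicate 2, against 0.939 to 1.09 in the other 7 samples. The first and the last of these share the same Ptk2b value. No single CpG among the 9 named held such a sample in either group.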

How the results depend on the processing

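Of 182 alternative values, 169 kept their direction and their side of the threshold (for a count, its size within 1.5-fold), 12 changed sign and 1 count moved. No value that changed sign passed its test, and the cause was not tested. The site test called 0 Ptk2b CpGs under each of its 17 alternatives. For +154 the limma p was 0.0605 with the replicate block, against 0.0399 without it. With medians over CpGs the difference was 0.0128 points in the proximal and 0.00522 in the middle segment, over CpGs with a mean fraction of at least 0.02 it was 0.0118 in the middle segment, and with 4 lengths in place of 3 it was 0.0369 in the first. With medians, an alternative chosen after seeing the data, the middle segment exceeded the CpGs outside it by 0.459 points, against 0.609 with means. Of the 8 CpGs with a mean fraction of at least 0.02, 4 were lower in tunnel samples. With 1 sample left out, the difference ranged from -0.159 to 0.0235 for the amplicon, -0.262 to 0.0564 for the proximal, -0.161 to 0.0849 for the middle and -0.217 to -0.0578 for the distal segment, and from 10 to 15 CpGs were lower in tunnel samples. At +29 it ranged from -0.0580 (without campus replicate 1) to 0.316, and at +135 from -0.336 (without tunnel replicate 1) to 0.388, with -0.123 without campus replicate 3 and -0.0290 without tunnel replicate 3. The proximal segment gave 0.0408 without campus replicate 3. In a check of the replicate numbers, same-numbered samples correlated at -0.390 to 0.0471 and differently numbered ones at -0.243 to 0.346. These are not the correlations of whole profiles given above, which were at least 0.659 for every pair of samples. In that check 1 of 8 correlated best with its own number, so the numbers were not taken as pairs. The block changed no call (amplicon exact sign-flip p = 0.75, where 4 pairs allow 0.125). Relative to the Abca7 mean the amplicon difference was -0.215 points (exact permutation p = 0.114). With depth unknown, counting error and differences between samples cannot be told apart.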

Other observations

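The contrast between the directly adjacent CpGs at +154 and +156 was noticed after the values were seen and is given without a test. Within samples, +154 exceeded +156 by 2.92, 3.28, 4.21 and 3.29 percentage points in campus replicates 1 to 4 and by 1.26, 2.18, 1.84 and 1.95 points in tunnel replicates 1 to 4. The groups did not overlap. The step from +156 up to +161 was likewise larger in campus samples, with a mean of 2.03 against 1.20 points and no overlap. Both steps share the CpG at +156, and the first also holds +154, the CpG with the largest group difference. Of the 53 pairs of adjacent CpGs in the panel, 3.77% had within-sample differences that did not overlap between the groups, and these were the 2 Ptk2b steps at +156. Of the 70 allocations of the samples to groups, a share of 0.0286 gives no overlap for a pair, which is close to that percentage. At +156 itself campus samples averaged 2.04% ± 0.681 and tunnel samples 2.38% ± 0.382 (SD, n = 4 each), and the groups overlapped.

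After group means were removed, the mean correlation over samples was 0.122 for the 19 adjacent pairs and 0.105 for the 171 other pairs. Among the adjacent pairs, the 12 within 6 bp gave -0.00672. Without campus replicate 2 these values were 0.0311, -0.0533 and -0.136. They are descriptions over 8 or 7 samples.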
